A study of Bos taurus with 16 samples.

Results

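CLSTN3 (ENSBTAG00000008129) and COLQ (ENSBTAG00000040193) are 2 genes of 42862 separate loci counted in the RNA-Seq libraries of pre-weaned calves, and both encode proteins known from synapses. They were selected on the adipose data themselves, because both were lower in 5-HTP-supplemented calves at a false discovery rate (FDR) at or under 0.20, so their adipose treatment difference is a description, and every FDR given for it is the selecting value or its counterpart under another setting, not evidence for the difference. Holstein bull calves, 21 days old at the start, received milk replacer with 5-hydroxytryptophan (5-HTP, the immediate precursor of serotonin, 90 mg/day) or with saline (CON) for 10 days, with 4 calves per group. Subcutaneous white adipose tissue from near the tail head and pelvis and gluteus medius muscle from the rump were then sequenced, giving 16 libraries. All calves were male, of 1 breed and on the same liquid diet, so the libraries describe that kind of calf alone. Both tissues came from the same 8 calves and are not independent of each other. The label numbers (CON 1 to 4, 5-HTP 5 to 8) recur in both tissues and were used to pair libraries only in an alternative.

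CLSTN3 is calsyntenin 3, a membrane protein of the cadherin superfamily that sits on the postsynaptic side and helps synapses form. In mammals the same locus also gives rise to CLSTN3B, an adipocyte product that acts at the endoplasmic reticulum and lipid droplet, and counts summed over a locus do not tell these transcripts apart. COLQ is the collagen tail that anchors acetylcholinesterase, the enzyme that clears acetylcholine, in the basal lamina of the neuromuscular junction. Both tissues were sequenced whole, so fewer cells of a type and less RNA per cell cannot be told apart.

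CLSTN3 was counted under 1 identifier. COLQ was counted under 2 identifiers, and both held the same count in all 16 libraries, so that COLQ was used once. In the RefSeq gene table, which follows the later assembly ARS-UCD2.0, the nearest protein-coding genes are PEX5 and RBP5 for CLSTN3 and EAF1 and HACL1 for COLQ. That table lists 0 genes overlapping either gene. The study also designed a qPCR assay on the RefSeq CLSTN3 transcript and ran it on the same adipose RNA samples. For the genes it measured by qPCR, it reported the direction seen by RNA-Seq and a similar log2 fold change. That is a second measurement of the same calves. The assay's forward primer of 20 bases is shown because it is the designed sequence that ties the symbol to this transcript. It is written 5′ to 3′ in lower case with no part marked, and its position in the genome was not analysed here.
CLSTN3 forward primer: atacccccttcctcatcgac

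The total count per library ranged from 17289845 to 28649548. In adipose tissue the median total was 19379380 in CON calves and 23005496.5 in 5-HTP-supplemented calves, and its part in the values below was not tested beyond scaling to the library size. The floor of detection was set at 3 counts in a library, which covers counting error only. Gene symbols were paired with few identifiers, so the tissue labels were not checked against markers of adipocytes, muscle fibers or other cells.

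In adipose tissue, CLSTN3 was lower in 5-HTP-supplemented calves than in CON calves, and it varied much more among the CON calves. The CON calves 1 to 4 had 305, 420, 90 and 282 CLSTN3 counts, and the 5-HTP calves 5 to 8 had 91, 78, 96 and 50. After scaling to the library size by the trimmed mean of M values (TMM-normalized CPM), the CON calves had 13.6, 27.0, 4.45 and 14.9, and the 5-HTP calves had 3.82, 3.19, 4.14 and 2.89. Calf 2 was the highest, and CON calf 3 stood next to the supplemented calves, just above calf 7. The groups did not overlap in CPM, although the raw count of calf 3 lay below those of calves 5 and 7. The same held in this direction for 1.03% of the 18872 loci tested in adipose tissue. The selection used this contrast, so nothing is read from the lack of overlap. CON calves averaged 15.0 ± 9.25 CPM and supplemented calves 3.51 ± 0.570 CPM (mean ± SD, n = 4 each). The highest CON calf had 6.06 times the lowest, against 1.43 times among the supplemented calves.

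The fitted difference of CLSTN3 in adipose tissue was a logFC of -2.09 (SE 0.46), or 4.25-fold lower with 5-HTP, at an FDR of 0.0382 in the edgeR likelihood ratio test that chose it. By P value it held rank 5 among the loci tested in adipose tissue. Of the 20167 features tested there, 0.0545% were lower at an FDR at or under 0.20, and since that contrast chose the members nothing is read from this share. Leaving out CON calf 3 moved the logFC to -2.39, and leaving out CON calf 2 moved it to -1.64. The FDR was at or under 0.20 in 7 of 8 fits that left out 1 calf, and it was 0.276 without 5-HTP calf 8.

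COLQ was also lower in the adipose tissue of 5-HTP-supplemented calves, with a smaller logFC than CLSTN3. The CON calves 1 to 4 had 841, 1420, 1011 and 1039 COLQ counts, and the 5-HTP calves 5 to 8 had 580, 682, 422 and 535. In TMM-normalized CPM, the CON calves had 37.4, 91.2, 49.97 and 54.8, and the 5-HTP calves had 24.3, 27.9, 18.2 and 31.0. All 4 supplemented calves lay below all 4 CON calves, both in counts and in CPM, and CON calf 2 was again the highest. CON calves averaged 58.3 ± 23.1 CPM and supplemented calves 25.4 ± 5.48 CPM (mean ± SD, n = 4 each). Groups that did not overlap in this direction were seen for 1.03% of the 18872 loci tested in adipose tissue, both members among them, and the selection used the same contrast.

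The fitted difference of COLQ in adipose tissue was a logFC of -1.20 (SE 0.30), or 2.30-fold lower with 5-HTP, at an FDR of 0.112, at rank 12 among loci by P value. Leaving out CON calf 2 moved it to -0.91, and leaving out CON calf 1 moved it to -1.37. The FDR of COLQ was at or under 0.20 in 5 of 8 fits that left out 1 calf. It was 0.337 without CON calf 4, 0.314 without 5-HTP calf 5 and 0.661 without 5-HTP calf 7. With the quasi-likelihood test of edgeR, neither gene was near the threshold, since the FDR of both was 0.966 at almost the same logFC. At the edge of the selection, the last feature inside the threshold was REEP6 (ENSBTAG00000002311) with a logFC of 1.27 at an FDR of 0.184, and the first outside was ENSBTAG00000019822 with a logFC of 1.09 at an FDR of 0.232.

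**Figure D1:**
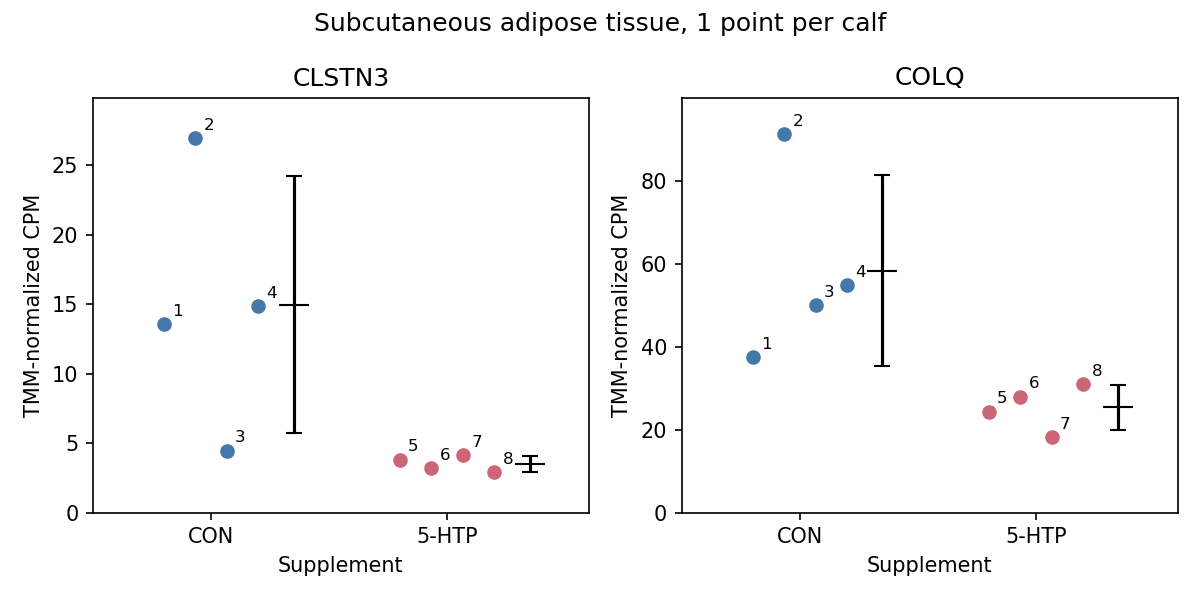
TMM-normalized CPM of CLSTN3 (left) and COLQ (right) in adipose tissue, 1 point per calf with its number, and the mean with SD of each group of 4 beside the points. CON calf 2 is the highest for both genes, and CON calf 3, at 4.45 CPM of CLSTN3, is close to the supplemented calves, which reach 4.14 CPM.

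**Figure D2:**
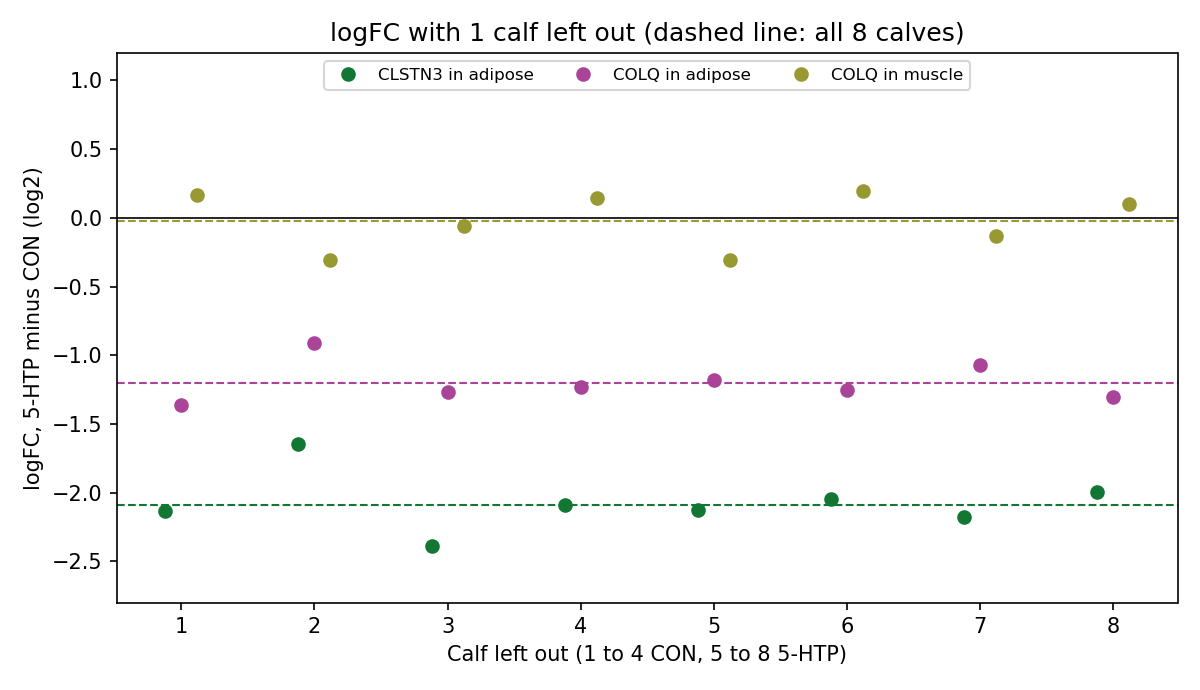
The logFC (5-HTP minus CON, log2) after leaving out each calf in turn, with a dashed line for the fit to all 8 calves. Both genes stay below 0 in adipose tissue whichever calf is left out, from -2.39 to -1.64 for CLSTN3 and from -1.37 to -0.91 for COLQ. That sign was close to fixed in advance, since the genes were chosen on this contrast and the groups did not overlap in CPM. COLQ in muscle lies on both sides of 0.

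The fitted spread of both genes between calves was above the median of features with similar abundance. The biological coefficient of variation fitted by edgeR, which is the spread left after counting error, was 43.7% for CLSTN3 in adipose tissue, against a median of 31.1% for the 1000 features nearest in abundance. For COLQ it was 29.1% against a median of 23.5%. Of these neighbours in abundance, 88.0% had a lower value than CLSTN3 and 78.5% a lower value than COLQ. The CPM of CLSTN3 in adipose tissue had a coefficient of variation of 61.8% among CON calves and 16.2% among supplemented calves. For COLQ it was 39.6% among CON calves and 21.6% among supplemented calves. At the lowest count of each gene among the supplemented calves, counting error alone gives 14.1% for CLSTN3 and 4.87% for COLQ. The other supplemented calves had higher counts, at which counting error is smaller. Counting error is thus part of the CLSTN3 spread among these calves, and how large a part was not estimated.

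Calf-to-calf deviations of the 2 genes were compared within adipose tissue, after subtracting each group's mean of log2(CPM + 0.1). Calf 2 lay above its group mean for both genes, by 1.103 for CLSTN3 and 0.72 for COLQ on the log2 scale, whereas calf 3 was at -1.47 for CLSTN3 and only -0.15 for COLQ. Over the 8 calves Pearson's r was 0.351 (exact permutation within groups, 2-sided p = 0.576) and Spearman's rho was 0.190 (exact permutation p = 0.731), the only such relation computed. Without calves 3 and 2, the farthest from the median in CLSTN3, r was -0.70. No relation between the calf-to-calf deviations of the genes was detectable, and its sign rested on these calves. In muscle the relation was not computed because CLSTN3 had too few counts.

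**Figure D3:**
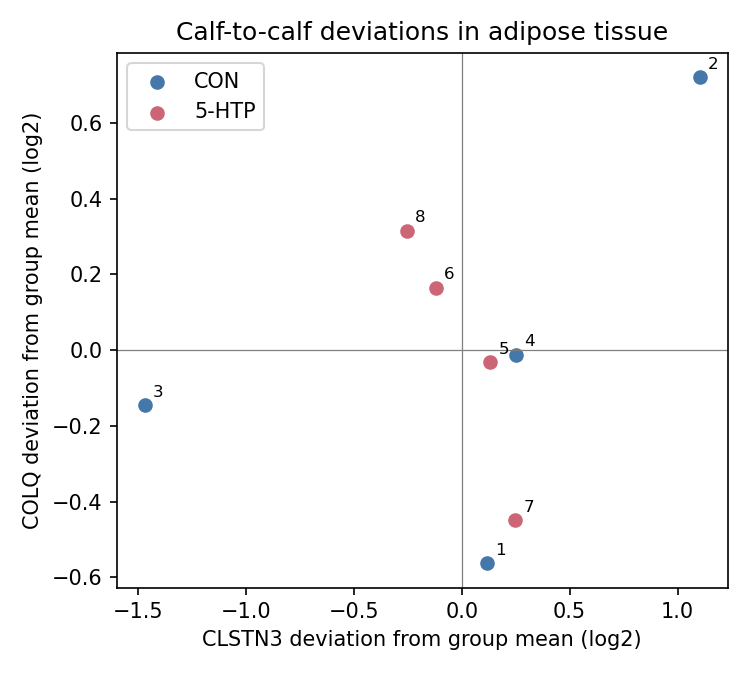
Deviation of each calf from its group mean in adipose tissue, CLSTN3 on the horizontal and COLQ on the vertical axis (both log2), labelled by calf number. Calves 2 and 3 lie far out on the CLSTN3 axis, and the other 6 calves lie within 0.26 of 0 on it.

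The loci that carry the numbers next to the members were also examined, without coordinates to show that they are the nearest genes. Among the loci numbered next to CLSTN3 in the merged annotation, ENSBTAG00000010490 had an adipose logFC of 0.09, C1S (ENSBTAG00000004840, a protease of the classical complement pathway) had -0.16 and ENSBTAG00000013126 had -0.25, while another had too few counts to test. In the RefSeq table, on a later assembly, C1S was not among the nearest protein-coding genes of CLSTN3, which were PEX5 and RBP5. The loci numbered next to COLQ had an adipose logFC between -0.18 and 0.27. The FDR of all 7 tested loci was 0.999 in the edgeR likelihood ratio test. Their logFC were all nearer to 0 than those of CLSTN3 and COLQ, as was the median over all features tested in adipose tissue, 0.0053. Since CLSTN3 and COLQ were chosen for their adipose difference, nothing is read from this comparison.

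In muscle, which the selection did not use, CLSTN3 was barely detected and no difference in COLQ between the groups passed the test. The CON calves 1 to 4 had 0, 8, 13 and 0 CLSTN3 counts in muscle, and the 5-HTP calves 5 to 8 had 2, 1, 1 and 6. Only 3 of 8 muscle libraries held more than 3 counts of CLSTN3, and 1 held at least 10, so the gene did not pass the filter and was not among the 16878 features tested in muscle. The counts summed to 21 over the CON calves and 10 over the supplemented calves, and the groups overlapped. The difference of mean log2(CPM + 0.1) was -0.20 (exact permutation test, 2-sided p = 0.857, n = 4 per group, smallest possible p = 0.0286). With so few counts, the muscle libraries do not show whether CLSTN3 differed between the groups there.

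For COLQ in muscle, the CON calves 1 to 4 had 99, 34, 80 and 132 counts and the 5-HTP calves 5 to 8 had 155, 40, 90 and 49. In TMM-normalized CPM within muscle, the CON calves had 4.63, 1.18, 3.12 and 4.45, and the 5-HTP calves had 5.01, 1.66, 4.03 and 2.40. The groups overlapped over nearly their whole range, and the library numbered 2, the highest in adipose tissue, was the lowest in muscle. CON calves averaged 3.34 ± 1.59 CPM and supplemented calves 3.27 ± 1.52 CPM (mean ± SD, n = 4 each). The fitted logFC was -0.02 (SE 0.45, 95% interval -0.91 to 0.86) with an FDR of 0.997 by edgeR's likelihood ratio test, and the exact permutation test gave a 2-sided p of 1. Across muscle, 0.201% of the features tested passed an FDR of 0.20 in either direction. The 95% interval of the logFC in adipose tissue, -1.79 to -0.62, overlapped that in muscle, and the adipose value is the one on which COLQ was chosen. Such an overlap does not measure the difference between the tissues, which is given below with its SE. The muscle interval does not show that COLQ was unaffected there. The fitted biological coefficient of variation of COLQ in muscle was 42.7%, above the median of 28.8% for the 1000 features nearest in abundance, of which 92.3% were lower.

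**Figure D4:**
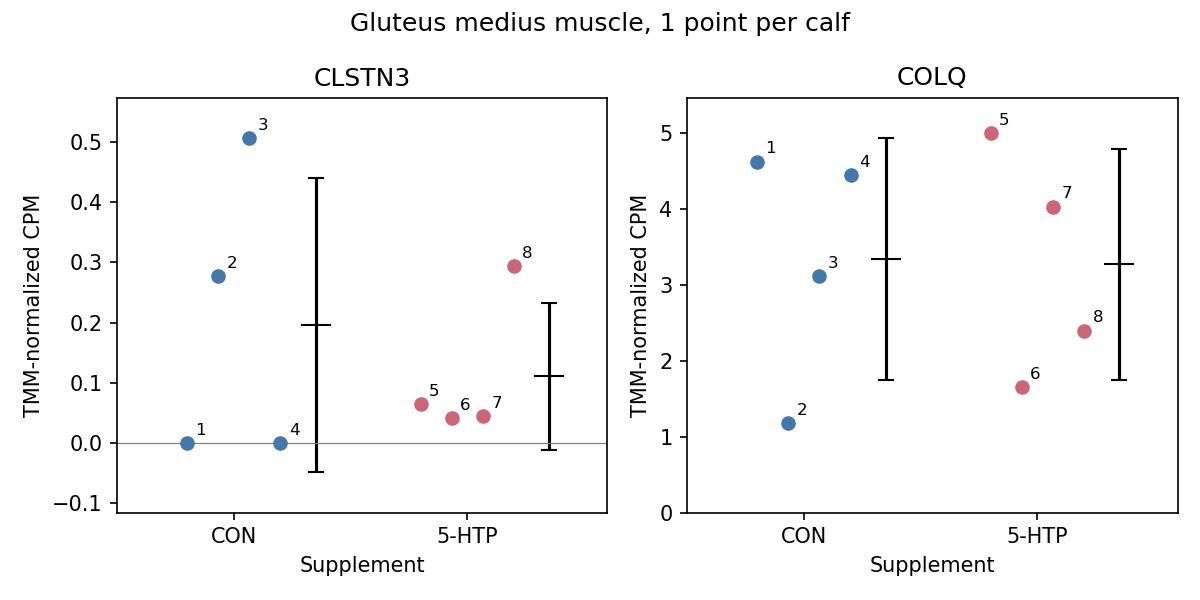
TMM-normalized CPM of CLSTN3 (left) and COLQ (right) in gluteus medius muscle, 1 point per calf with its number, and the mean with SD of each group of 4. The groups overlap for both genes, and CON calves 1 and 4 are at 0 for CLSTN3.

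In a fit to all 16 libraries, the treatment difference in muscle minus that in adipose tissue was 1.21 (SE 1.02) for CLSTN3 and 1.17 (SE 0.54) for COLQ on the log2 scale. These values contain the adipose difference on which the genes were chosen, so no p is given for them. The CLSTN3 value also rests on 31 counts in muscle, where only 1 of 8 libraries held at least 10. The other 19 loci that the study listed as differing in adipose tissue were examined in muscle in the same way. Only 9 of them had enough counts there to be tested. With the edgeR likelihood ratio test, 0 were lower and 1 was higher at an FDR at or under 0.20, namely IFI47, an interferon-induced GTPase, with a logFC of 6.84. Of the 3 that were lower in adipose tissue and could be tested in muscle, 2 had a logFC below 0, with a median of -0.12. Over all features tested in muscle, 0.201% passed that FDR in either direction and the median logFC was -0.0057. Nothing is read from the sign of so few loci. This list was also chosen on the adipose libraries.

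Both genes were much more abundant in adipose tissue than in muscle, the tissue in which the COLQ protein is best known. With CPM scaled by TMM over all 16 libraries, CLSTN3 ranged from 1.90 to 17.5 CPM in adipose tissue (median 2.87, n = 8) and from 0 to 0.752 CPM in muscle (median 0.0827, n = 8). COLQ ranged from 12.1 to 59.1 CPM in adipose tissue (median 22.7, n = 8) and from 1.79 to 7.51 CPM in muscle (median 5.40, n = 8). For each gene, the lowest adipose library was above the highest muscle library, which was also the case for 14.7% of the 21849 features tested. From high to low, each gene was ordered as adipose tissue of CON calves, adipose tissue of 5-HTP-supplemented calves and muscle. The step between the adipose groups is the contrast that chose the genes, so that part of the order was fixed in advance. In muscle the COLQ groups did not differ beyond their spread, and CLSTN3 had too few counts to show whether its groups differed.

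The tissue logFC of CLSTN3 (adipose minus muscle) was 4.42 (SE 0.51), or 21.4-fold, with an FDR of 6.56e-16. CLSTN3 passed the filter through adipose tissue alone, since all 8 adipose libraries but only 1 of 8 muscle libraries held at least 10 counts, and its fold rests on 31 counts in muscle. A gene picked for a difference in adipose tissue had to be measurable there, so the direction of neither gene is independent of the selection. The logFC of COLQ was 2.34 (SE 0.27), or 5.06-fold, with an FDR of 4.94e-16 in the same edgeR likelihood ratio test. The exact permutation test of 8 against 8 libraries on log2(CPM + 0.1) gave a 2-sided p of 0.000155 for each gene, the smallest it can give, though the libraries share calves. For both genes, this p and the FDR only describe, since the selection favoured adipose tissue. For CLSTN3 the filter favoured it too. Higher levels in adipose tissue at an FDR at or under 0.05 were common, at 36.7% of the features tested. The median logFC over all features was 0.14, so both members lay far above it. Scaling to library totals alone moved that median to 1.33 and the members to 5.55 for CLSTN3 and 3.53 for COLQ. In CON calves alone the tissue logFC was 5.05 for CLSTN3 and 2.94 for COLQ, and in 5-HTP-supplemented calves alone it was 3.90 and 1.82.

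**Figure D5:**
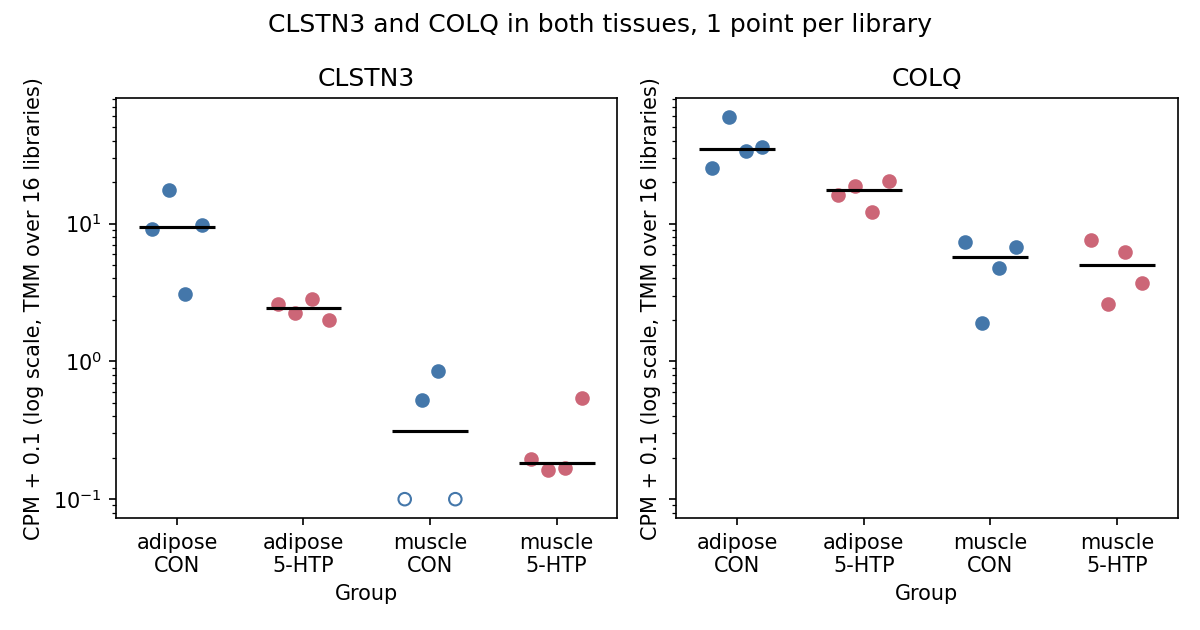
CPM + 0.1 on a log scale (TMM over all 16 libraries) for CLSTN3 (left) and COLQ (right), 1 point per library, with a line at the median of each group of 4 and open points for libraries with a count of 0. Every adipose library lies above every muscle library for both genes.

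The features whose calf-to-calf deviations were most like those of each member were looked up over the 16 libraries, among features with a mean of at least 50 counts. For CLSTN3 these were ENSBTAG00000014339 (r = 0.876) and XLOC_004833 (r = 0.846), among 12320 features. For COLQ they were ENSBTAG00000047801 (r = 0.877) and ENSBTAG00000052700 (r = 0.863), among 12319 features. In the 8 adipose libraries alone, different features came first, ENSBTAG00000019353 (r = 0.981) for CLSTN3 and ENSBTAG00000012125 (r = 0.985) for COLQ. No symbol was paired with these features, the libraries share calves and normalization, and the muscle deviations of CLSTN3 rest on 0 to 13 counts, so the values only describe these libraries.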

How the data were processed

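Poly-A RNA-Seq counts of 16 libraries, adipose tissue and muscle of 8 calves, were put in 4 groups from their labelled tissue and treatment. The authors trimmed reads (Trim Galore 0.4.4, FastQC 0.11.7), mapped them with HISAT2 2.1.0 to ARS-UCD1.2, merged transcripts with Cufflinks 2.2.1 and counted unique reads per gene with htseq-count 0.6.1p1. The deposited files hold these counts as whole numbers, not normalized, for 44265 features. Reads shared between overlapping or near-identical genes could have been lost or split, and strand was not given in the sources used here.

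Everything else was computed from the counts in R 4.3.3 with edgeR 4.0.16: TMM normalization, a minimum of 10 counts in 4 or more libraries per feature, the likelihood ratio test the study used, and Benjamini-Hochberg adjustment over all features, each tissue by itself (FDR at or under 0.20). As worded, the study's own filter dropped any gene with under 10 reads in 4 or more replicates. That rule keeps fewer features and is the stricter filter among the alternatives. The tissue contrast used all 16 libraries (FDR at or under 0.05). Permutation tests used SciPy 1.17.1 and Python 3.11.15 on log2(CPM + 0.1). Fold changes are on the log2 scale. The code was tested on simulated data. No pair of libraries in a group agreed within sampling noise (chi-square per degree of freedom at least 23.5). Alternatives were the quasi-likelihood test, DESeq2 1.42.0, other normalizations, filters and dispersions, 1 row per locus, a block for the replicate number, and leaving out each calf.

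The members and lists were chosen with earlier results of these data known. The named genes are the members, the study's adipose list, the loci numbered next to the members and the features most like them. The reference table gives an Ensembl identifier for 0 of its 37063 genes, so 10 lists with 70 symbols (calsyntenins, neuromuscular junction genes, cell type markers and others) could not be matched and were not analysed here.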

Additional observations from a re-analysis of the deposited data

Results flagged for a closer look

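CLSTN3 in the muscle of 5-HTP-supplemented calves stood out because calf 8, with 6 counts, was far above the other calves of its group, with 1 or 2 counts. The gap to the nearest calf was 0.908 of the group's whole range, above Dixon's 95% critical value for 4 samples. It was 1 of 8 combinations of gene and group examined, and chance gives about 1 in 20. All of these counts are close to the floor of 3.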

How the results depend on the processing

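In adipose tissue, the logFC of both genes stayed below 0 under all 16 alternatives, from -2.39 to -1.64 for CLSTN3 and from -1.37 to -0.91 for COLQ. Their FDR depended more on the method. It was 0.966 for both genes with the quasi-likelihood test, 0.0118 for CLSTN3 and 0.0952 for COLQ with DESeq2, and 0.217 and 0.299 with dispersions over all 16 libraries. The logFC of COLQ in muscle was on the other side of 0 with library totals alone (0.043) and ranged from -0.31 to 0.20 when 1 calf was left out. The CLSTN3 difference in muscle ranged from -0.57 to 0.29 when 1 calf was left out, and was -0.83 with no filter (FDR 0.940 by edgeR). None of these passed a threshold, and the cause was not tested. The tissue logFC kept its direction and call in all 20 alternatives for CLSTN3 (3.90 to 5.55) and all 21 for COLQ (1.82 to 3.53). Under the stricter filter CLSTN3 was not tested. The tissue calls of both genes only describe, since the selection favoured adipose tissue, as did the filter for CLSTN3. RLE factors or library totals moved the difference between tissues in the treatment effect to between 1.17 and 1.22 for CLSTN3 and between 1.15 and 1.22 for COLQ, settings chosen after seeing the data, as were the unpaired permutation test between tissues and the adipose-only search for like features.

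The replicate numbers shared by both tissues are not stated to be the same calf, and the deviations of same-numbered libraries correlated at -0.23 to 0.303 (median 0.184, above 0.1 for 6 of 8). With the number as a replicate block the tissue logFC was 4.82 for CLSTN3 and 2.39 for COLQ, and 4.59 and 2.38 with the quasi-likelihood test. The paired exact permutation test gave p = 0.00781 for each gene, the smallest possible. For both genes that p only describes, for the reasons given above. The block changed no call and moved the number of features called from 14754 to 14808.

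The number of features called varied widely. In adipose tissue it was 22 with the likelihood ratio test, 16 with the stricter filter and 1 with the quasi-likelihood test. It was 7 (without CON calf 4) to 67 (without CON calf 3) when 1 calf was left out. In muscle it was 34, 1 with the quasi-likelihood test, 21 with library totals alone, 12 with dispersions over 16 libraries, 51 with no filter and 15 to 198 when 1 calf was left out. Between tissues it was 14754, of which 54.4% were higher in adipose tissue, against 86.1% of the calls with library totals alone. In CON calves alone it was 9362. The precision of CLSTN3 in muscle is limited by its low counts, 0 to 13 per library.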
